A study of Homo sapiens with 18 samples.

Results

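The comparison described here is that of OVCAR3-KRAB cells with the guide sgXIST9 against OVCAR3-KRAB cells with the control guide sgCtl, both kept in normoxia. It rests on 6 of the 18 libraries of the study, 3 of sgXIST9 and 3 of sgCtl, and the members are all genes in the count table. The labels name the cells OVCAR3-KRAB, and the paper places OVCAR3 in the high-grade serous subtype of ovarian cancer. All cells of the study, controls included, express dCas9-KRAB, in which an inactive Cas9 is fused to a repressor domain. In sgXIST9 cells the guide directs this repressor to the XIST promoter, and in sgCtl cells the guide targets Gal4, which is not a human sequence. Cells with a further XIST guide, sgXIST7, and cells of each guide kept for 24 h at 1% oxygen were also sequenced. They entered the fit that set the spread of each gene, and sgXIST9 in normoxia is compared with them below. The sgRNA cells were grown from clones, so that the effect of the XIST knockdown (KD) and the difference between the sgXIST9 and sgCtl clones cannot be told apart here. The labels do not say whether the 3 replicates of a group came from separate cultures, and the p-values measure only the spread between these libraries, which may be technical.

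XIST is the long noncoding RNA that coats the inactive X chromosome in female cells and starts its silencing during early development. Once silencing is established, DNA methylation and repressive chromatin marks keep it in place, and many cancer lines have lost the coating by XIST altogether. CRISPR interference with dCas9-KRAB lowers transcription at the targeted start site through histone methylation, without cutting the DNA.

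Of 28277 listed genes, 14938 passed the filter on low counts and were tested with edgeR in a single fit of all 18 libraries. A gene was called when its Benjamini-Hochberg adjusted p-value was under 0.01 and its log2 fold change was above 1 or below -1. Levels are CPM, the counts of a gene scaled to the depth of its library with TMM, and the limit of detection was taken as 3 counts in each library of a group. Total counts per library ranged from 11794375 to 21923470. The libraries fell apart by guide, since the axis that held 79.6% of the variance between the 6 libraries separated sgXIST9 from sgCtl, while sgCtl replicate 2 stood apart from the other sgCtl libraries on the second axis, with 6.44%. Several markers of serous ovarian cancer were absent from both groups. MUC16, SOX17, WFDC2 and PGR had 0 counts in all 6 libraries, and CDH1 and KRT7 had at most 1 count in any of them. Whether the cells match the named line and its subtype was not tested. PAX8, the lineage factor of Mullerian epithelium, was at 1.51 ± 0.435 CPM in sgCtl and 1.71 ± 0.279 in sgXIST9 (SD, n = 3). EPCAM and KRT18, which mark epithelial cells, were at 177 to 202 CPM and at a mean of 168 CPM in sgCtl. The lists of markers of other cell types did not all stay level: the summed level of 12 fibroblast markers was 944 to 988 CPM in sgCtl and 654 to 716 CPM in sgXIST9, that of 13 neuron and glia markers 28.5 to 32.9 and 109 to 114, that of 14 leukocyte markers 24.9 to 29.9 and 37.5 to 56.3, and that of 12 endothelial markers 15.6 to 19.4 and 25.6 to 33.6. Of their defining genes PECAM1, CDH5, CD3D, SNAP25, STMN2, FAP and PDPN were at 0 in every library of both groups. PTPRC, CD3E, TYROBP, PDGFRB, TIE1, CLDN5, OLIG1 and OLIG2 were at 0 in sgCtl but not in every sgXIST9 library, and KDR, TEK, EMCN, ITGAX, RBFOX3, SYT1 and AQP4 at 0 in sgXIST9 but not in every sgCtl library. Their part in the results was not tested.

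The targeted gene came first. XIST was at 329, 867 and 242 CPM in the sgCtl libraries and at 29.0, 53.6 and 52.4 CPM in the sgXIST9 libraries, so that the groups did not overlap, with sgCtl replicate 2 well above the other sgCtl libraries. The log2 fold change was -3.41 (SE 0.44, edgeR adjusted p = 1.9e-05). When only the 6 libraries compared were fitted, the adjusted p was 0.019 and the call was lost, and without sgCtl replicate 2 the log2 fold change was -2.67. Per kilobase of transcript, XIST remained at a level of 2.34 CPM in sgXIST9, against 24.9 in sgCtl. In the sgXIST7 libraries it was at 0.216, 0.222 and 0.0436 CPM, and the residual XIST of sgXIST9 cells was higher than this by 8.11 on the log2 scale (edgeR adjusted p = 5.8e-07). The exact two-sided permutation test on the 3 and 3 values gave p = 0.1, which is the smallest p that this design allows, and this holds for any gene whose groups do not overlap. The promoter window of XIST is shown because the sgXIST9 guide directs the repressor to it. It is taken from RefSeq (GRCh38.p14), runs from 250 bases before to 50 bases after the start site on chrX:73852665-73852964, minus strand, and its 6 CG dinucleotides, which can carry methylation, are in capitals.
XIST: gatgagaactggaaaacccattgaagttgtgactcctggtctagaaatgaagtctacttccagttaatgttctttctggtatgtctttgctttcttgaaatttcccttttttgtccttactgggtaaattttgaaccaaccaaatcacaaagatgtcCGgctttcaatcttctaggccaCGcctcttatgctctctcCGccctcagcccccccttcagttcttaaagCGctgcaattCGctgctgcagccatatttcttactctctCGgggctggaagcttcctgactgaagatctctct

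None of the other 9 tested genes that start within 1 Mb of the XIST start was called. JPX, the noncoding activator of XIST next to it, was at 12.3, 10.2 and 11.9 CPM in sgCtl and 13.1, 14.8 and 13.6 CPM in sgXIST9. FTX, a further noncoding RNA of the X inactivation centre, was at 5.57, 7.74 and 6.37 CPM and at 4.73, 6.0 and 4.38 CPM. RLIM, a ubiquitin ligase that acts on XIST regulation in early development, was at 237, 214 and 221 CPM and at 194, 192 and 197 CPM (log2 fold change -0.21, edgeR adjusted p = 0.11).

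Across the genome, up-regulation in sgXIST9 was called for 587 genes and down-regulation for 563, which are 3.93% and 3.77% of the genes tested, or 7.7% in either direction. The changes were large: 324 of the up-regulated genes had a log2 fold change above 2 and 64 above 5, and 340 and 127 of the down-regulated genes lay below -2 and -5. The median log2 fold change was 2.19 over the up-regulated genes, -2.54 over the down-regulated genes and -0.02 over all genes tested. The libraries of the groups did not overlap for 586 of the up-regulated and 563 of the down-regulated genes, where 53.9% of all tested genes did not overlap. The exception was DDT, which had 0, 3 and 3 counts in sgCtl and 654, 3 and 475 counts in sgXIST9 and has a near-identical neighbour, DDTL, so that its count is uncertain. Among the up-regulated genes 91 were not detected in sgCtl, and among the down-regulated genes 165 were not detected in sgXIST9. The up-regulated genes took 1.09% of the counts in sgCtl and 4.03% in sgXIST9, and the down-regulated genes 1.42% and 0.384%. A further 809 genes had an adjusted p under 0.01 but changed by less than the fold required for a call. With DESeq2, the tool of the study, 637 genes were up-regulated and 606 down-regulated.

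**Figure D1:**
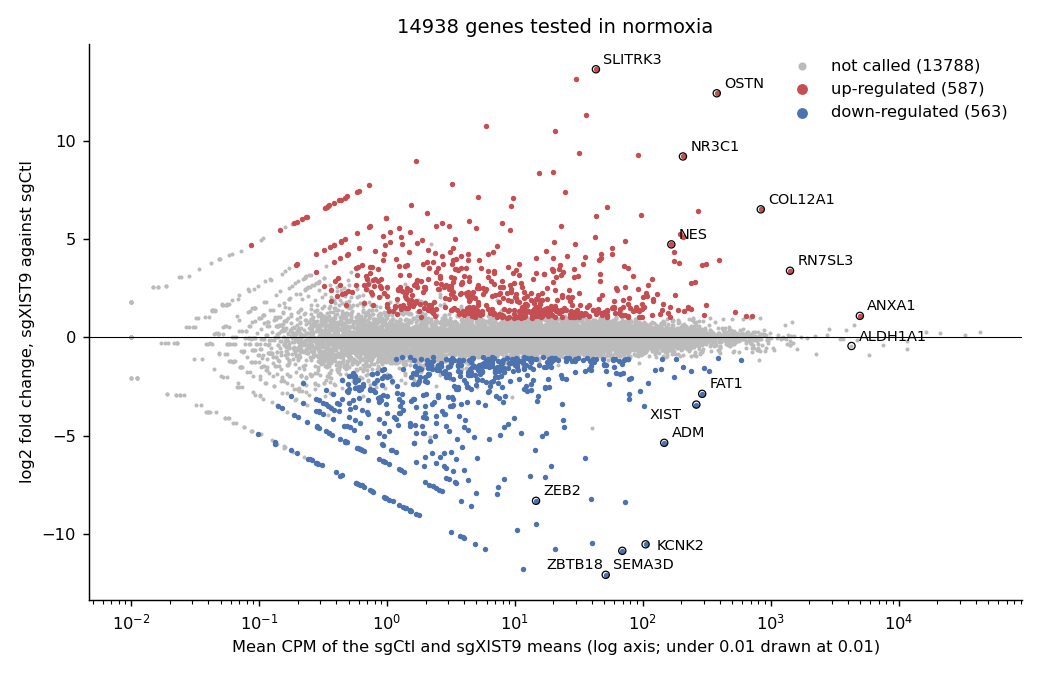
Log2 fold change of sgXIST9 against sgCtl in normoxia (vertical axis) for each of the 14938 genes tested, by the mean CPM of both groups (horizontal, log axis). The 587 up-regulated genes are red, the 563 down-regulated genes blue and the rest grey, and the diagonal rays at low CPM are genes with 0 or few counts in a group.

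Some of the largest gains were in genes with no or hardly any counts in sgCtl cells. OSTN, which codes for the secreted peptide osteocrin, was at 785, 743 and 744 CPM in sgXIST9, while its sgCtl libraries held 3 counts or fewer, and it was at least 3751-fold higher. SLITRK3, a membrane protein that organises inhibitory synapses, had 0 counts in sgCtl and 87.3, 85.1 and 85.7 CPM in sgXIST9, at least 426-fold higher. BCHE, the butyrylcholinesterase that hydrolyses choline esters, had 0 counts in sgCtl and 59.2, 58.4 and 64.3 CPM in sgXIST9, at least 300-fold higher. All sgXIST9 libraries of these genes agreed closely and none overlapped with sgCtl. MYOC, a secreted glycoprotein of the trabecular meshwork of the eye, was at 66.2, 85.2 and 65.7 CPM in sgXIST9 and at least 359-fold higher. GRIK2, a kainate receptor subunit, was at 60.5, 65.0 and 65.6 CPM and at least 316-fold higher. The homeobox factor BARX2 was at 37.8, 46.1 and 40.5 CPM and at least 205-fold higher. UTS2B, the precursor of a vasoactive peptide, was at 36.8, 41.9 and 39.7 CPM (at least 195-fold), and METTL7A, a methyltransferase-like protein of lipid droplets, at 30.9, 26.2 and 35.3 CPM (at least 153-fold). Smaller levels were reached by ARHGAP24, a GTPase-activating protein for Rac (8.03, 12.5 and 15 CPM), and SARDH, the mitochondrial sarcosine dehydrogenase (5.76, 7.17 and 6.37 CPM). GPM6A and NR3C1 had a detectable level in sgCtl. GPM6A, a neuronal membrane glycoprotein, went from 0.268, 0.387 and 0.230 CPM to 191, 184 and 178 CPM (log2 fold change 9.29, SE 0.21, edgeR adjusted p = 3.0e-15). NR3C1, the glucocorticoid receptor, went from 0.335, 0.309 and 1.32 CPM to 436, 397 and 401 CPM (9.19, SE 0.42, edgeR adjusted p = 5.8e-11).

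The promoters of BCHE and OSTN are shown because both genes lie in runs of neighbouring genes on chromosome 3 that rose together, described below. They are RefSeq windows of 300 bases (GRCh38.p14), BCHE from chr3:165837374-165837673 on the minus strand and OSTN from chr3:191198991-191199290 on the plus strand, with the CG dinucleotides in capitals. Both hold 2 CG dinucleotides, while the windows of NR3C1 and COL12A1, which also rose, hold 23 and 29. Of the 27305 human promoters of this length in the RefSeq table, 95.8% hold at least 1 and 37.5% hold 6 or fewer, while of the 11114 tested genes with a promoter there, 8.93% hold 6 or fewer. A promoter was found for only 71.2% of the up-regulated and 72.3% of the down-regulated genes, against 74.4% of all tested genes. With this coverage no comparison of CG content over the called genes is given.
BCHE: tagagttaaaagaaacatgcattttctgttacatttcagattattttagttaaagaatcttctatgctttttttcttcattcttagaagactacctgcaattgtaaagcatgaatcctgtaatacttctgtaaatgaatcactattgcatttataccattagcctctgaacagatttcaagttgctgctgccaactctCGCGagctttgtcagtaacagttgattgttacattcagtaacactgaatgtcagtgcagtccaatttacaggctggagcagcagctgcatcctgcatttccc
OSTN: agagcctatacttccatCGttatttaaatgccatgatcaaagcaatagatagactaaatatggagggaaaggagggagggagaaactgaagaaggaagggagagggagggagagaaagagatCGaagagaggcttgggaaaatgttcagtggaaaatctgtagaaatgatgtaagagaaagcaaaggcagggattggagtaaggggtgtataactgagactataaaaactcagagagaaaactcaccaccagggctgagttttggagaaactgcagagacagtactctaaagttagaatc

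The largest losses left genes that were detected in each sgCtl library at or near 0 in sgXIST9. ZBTB18, a zinc finger repressor known from brain development, was at 138, 135 and 142 CPM in sgCtl and had 2 counts or fewer in each sgXIST9 library, at least 885-fold lower. The secreted semaphorin SEMA3D was at 101, 108 and 99.0 CPM in sgCtl and at least 657-fold lower. PRKAA2, a catalytic subunit of the energy sensor AMPK, was at 79.7, 85.8 and 76.1 CPM in sgCtl and at least 516-fold lower. These genes had no sgXIST9 library above the limit of detection. KCNK2, a background potassium channel, stood at 207, 205 and 218 CPM in sgCtl and at 0.0893, 0.319 and 0 CPM in sgXIST9 (log2 fold change -10.51, SE 0.37, edgeR adjusted p = 1.4e-12). RTKN2 was at 40.5, 44.6 and 38.9 CPM in sgCtl and at least 265-fold lower. The secreted protein CRISPLD1 was at 11.1, 11.6 and 12.3 CPM in sgCtl and at least 74.8-fold lower, and the endocytic protein AMPH at 5.84, 9.75 and 7.92 CPM and at least 50.2-fold lower. ZNF365, a zinc finger gene next to RTKN2, and the adaptor DOK6 had 0 counts in each sgXIST9 library and were at least 51.2-fold and 40.8-fold lower. The sgCtl libraries varied more for GPR84, a receptor for medium-chain fatty acids (11.7, 25.4 and 32.7 CPM), DOCK10, an exchange factor for small GTPases (14.8, 9.51 and 5.11 CPM), and the linker histone gene H1-5 (13.3, 6.26 and 2.93 CPM). All had 0 counts in the sgXIST9 libraries, and all lost their call when only the 6 libraries compared were fitted.

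**Figure D2:**
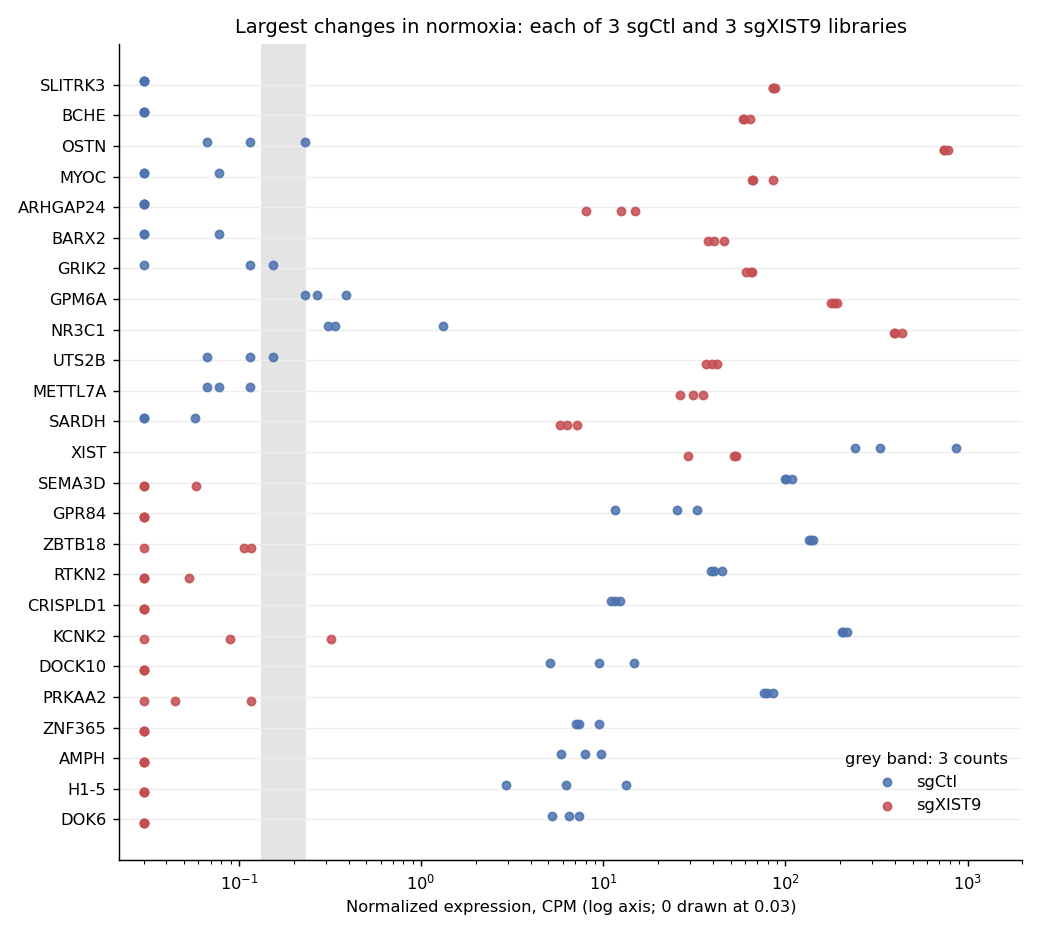
CPM (horizontal, log axis, with 0 drawn at 0.03) of the 12 genes with the largest rise, XIST, and the 12 genes with the largest fall, with a blue point for each of the 3 sgCtl and a red point for each of the 3 sgXIST9 libraries. The grey band is the level of 3 counts; apart from XIST, at least 1 group of each gene lies at or near it, the highest such library being NR3C1 at 1.32 CPM, and no gene shows an overlap between the groups.

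Abundant genes moved by smaller factors but by more transcripts. ANXA1, a phospholipid-binding regulator of inflammation, rose from 3170, 2884 and 3473 CPM to 6942, 6567 and 6832 CPM (log2 fold change 1.09, edgeR adjusted p = 4.2e-05). COL12A1, a collagen that associates with collagen fibrils, rose from 16.7, 17.2 and 20.6 CPM to 1738, 1676 and 1550 CPM (6.50, SE 0.29, edgeR adjusted p = 3.8e-11). Per kilobase of transcript, COL12A1 in sgXIST9 was at 141 CPM, below OSTN at 234 CPM and above NR3C1 at 38.7 CPM. ID3, NAP1L1 and CCDC50 also rose, CCDC50 from 48.8, 48.6 and 46.3 to 738, 763 and 706 CPM. GJA1, the gap junction protein connexin 43, rose from 77.1, 33.9 and 13.9 CPM to 482, 518 and 610 CPM, with a spread among the sgCtl libraries, and the call was lost when only the libraries compared were fitted (edgeR adjusted p = 0.015). RN7SL3, a copy of the RNA of the signal recognition particle, rose from 305, 206 and 231 CPM to 2333, 3026 and 2395 CPM, but it shares nearly all of its sequence with RN7SL1 and RN7SL2, and its count is uncertain. Of the genes with the largest loss, FAT1, an atypical cadherin, fell from 486, 547 and 504 CPM to 67.7, 69.1 and 73.9 CPM (log2 fold change -2.87, SE 0.11, edgeR adjusted p = 3.6e-12). ADM, the precursor of the vasodilator adrenomedullin, fell from 274, 263 and 325 CPM to 7.81, 6.06 and 7.12 CPM (-5.36, SE 0.29, edgeR adjusted p = 6.3e-10). ARHGAP5 fell from 786, 880 and 779 CPM to 379, 350 and 356 CPM, VMP1, a protein of autophagosome formation, from 424, 431 and 479 CPM to 147, 154 and 159 CPM, and RAP2B, a small GTPase, from 287, 268 and 292 CPM to 67.5, 70.3 and 75.1 CPM.

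The member counts of the gene lists that follow stand beside shares of 3.93% up and 3.77% down over all genes tested. In TGF-beta and BMP signalling, ligands and receptors fell where they were called, while most of the called antagonists and targets rose. TGF-beta and BMP are secreted dimers that act through receptor kinases and SMAD factors, and the ID genes are classical targets of the BMP branch. Of 27 tested ligands and receptors, 0 rose and 11 fell, with a median log2 fold change of -0.58, and without sgXIST9 replicate 1 the number was 7. BMP7 fell from 18.4, 22.2 and 23.6 CPM to 0.714, 0.425 and 1.05 CPM (log2 fold change -4.88, SE 0.30, edgeR adjusted p = 3.1e-09). INHBA, which codes for the activin A subunit, went from 10.2, 7.35 and 3.16 CPM to below detection (at least 44.2-fold lower), as did TGFB2 from 13.3, 7.35 and 3.04 CPM (at least 50.7-fold), BMP5 from 10.1, 6.26 and 2.41 CPM (at least 40-fold) and GDF6 from 4.76, 3.40 and 4.54 CPM (at least 27.1-fold). For INHBA, TGFB2 and BMP5 the sgCtl libraries spread more than 3-fold, with replicate 1 the highest and replicate 3 the lowest. Of the 18 tested antagonists and targets, 7 rose and 3 fell, with a median of 0.23. The inhibitors of differentiation rose strongly: ID3 from 66.8, 38.3 and 27.5 CPM to 580, 610 and 559 CPM, ID4 from 8.92, 4.25 and 1.38 CPM to 147, 133 and 142 CPM, and ID2 from 9.32, 4.41 and 2.47 CPM to 100, 76.6 and 88.8 CPM. For ID4 and ID2 the sgCtl libraries also spread more than 3-fold, with replicate 1 the highest and replicate 3 the lowest. SMAD9, a BMP-activated SMAD, rose from 6.31, 4.95 and 2.76 CPM to 45.1, 40.9 and 37.2 CPM, and the inhibitory SMAD6 from 3.29, 2.78 and 1.55 CPM to 12.4, 9.93 and 10.0 CPM. The members that fell were SKIL, a corepressor of SMADs (130, 142 and 123 CPM to 34.1, 28.8 and 31.4 CPM), FSTL1 (log2 fold change -1.76) and LTBP1 (-1.45), which binds latent TGF-beta in the matrix. The groups did not overlap for any of the genes named here.

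Feedback genes of the ERK cascade mostly rose where they were called, while its receptors and ligands lay on both sides of 0. Feedback genes are transcribed when ERK is active and dampen it, the DUSP and SPRY families being the best known. Of 21 tested, 7 rose and 1 fell, with a median log2 fold change of 0.44. PHLDA1 rose from 9.06, 7.35 and 2.53 CPM to 517, 559 and 518 CPM (6.41, SE 0.44, edgeR adjusted p = 1.2e-08), DUSP4 from 2.28, 2.32 and 2.24 CPM to 35.7, 39.4 and 36.8 CPM (4.03, SE 0.38, edgeR adjusted p = 5.1e-07), and ETV1, an ETS factor, from 56.1, 47.4 and 44.1 CPM to 184, 198 and 190 CPM. SPRY4 and DUSP5 also rose (log2 fold changes 1.37 and 2.0), and DUSP10, at about 1 CPM or less, was the member that fell (-1.94), a call that was lost without sgCtl replicate 2 or 3 or sgXIST9 replicate 1 or 2 (edgeR adjusted p = 0.040 to 0.054). Of 13 ERBB receptors and EGF family ligands, 4 rose and 0 fell, with a median of -0.25. EGFR rose from 44.5, 52.9 and 37.1 CPM to 120, 136 and 137 CPM, EGF from 0.0671, 0.619 and 0.517 CPM to 5.22, 3.45 and 5.14 CPM, and NRG2 by 2.46 on the log2 scale, while the call of NRG4 was lost without sgCtl replicate 3 (edgeR adjusted p = 0.012). Of 11 FGF ligands and receptors 3 rose and 0 fell, with a median of -0.31. FGF2 rose from 177, 151 and 125 CPM to 503, 444 and 466 CPM, and FGFR3 from 3.02, 3.79 and 2.98 CPM to 42.2, 42.7 and 40.9 CPM. The other receptor tyrosine kinases and their ligands went both ways, with 4 up and 6 down of 30 (3 down without sgXIST9 replicate 1) and a median of -0.58. PDGFC rose from 0.939, 0.851 and 1.32 CPM to 106, 101 and 102 CPM (log2 fold change 6.60, SE 0.14, edgeR adjusted p = 3.0e-15). ANGPT2, a ligand of the endothelial receptor TIE2, had 0 counts in sgCtl and was at 1.29, 1.17 and 1.87 CPM in sgXIST9. PDGFD fell from 5.37, 5.49 and 4.59 CPM to below detection and PDGFA fell by 2.18 on the log2 scale. In the IGF axis, 1 member rose and 3 fell of 11. IGFBP2 fell from 40.2, 40.8 and 53.2 CPM to 2.37, 2.76 and 2.22 CPM, IGFBP3 from 167, 128 and 121 CPM to 19.6, 18.1 and 18.2 CPM, and IRS1, the docking protein of the insulin receptor, from 2.21, 3.02 and 3.96 CPM to 0 counts. IGFBP6 rose by 1.46 on the log2 scale. IGFBP2 and IRS1 lie in a region of chromosome 2 where most genes were lower, described below.

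Called matrix and adhesion genes went both ways. Of 27 collagens 5 rose and 6 fell, and 17 were lower in all, with a median log2 fold change of -0.66. Beside COL12A1, COL1A2, a chain of fibrillar collagen I, rose from 0.403, 0.0774 and 0.344 CPM to 31.6, 58.0 and 57.9 CPM, COL14A1 from 3.49, 4.79 and 4.88 CPM to 42.1, 46.5 and 41.6 CPM, and COL18A1, the source of endostatin, from 80.2, 65.6 and 51.1 CPM to 304, 316 and 250 CPM. COL1A1, the partner chain of COL1A2, reached only 1.74, 2.44 and 2.57 CPM, and its call was lost without any single library other than sgXIST9 replicate 1 (edgeR adjusted p = 0.016 to 0.036). COL4A4, a basement membrane chain, fell from 3.29, 3.87 and 3.67 CPM to 0.134, 0.266 and 0.0584 CPM, and COL5A1 and COL27A1 fell by 1.42 and 1.80 on the log2 scale. Of 25 integrins, laminins and nidogens 3 rose and 4 fell, and 15 were lower in all. Of 21 matricellular proteins and proteoglycans 2 rose and 4 fell (2 without sgXIST9 replicate 1), 14 were lower in all, and the median was -0.47. NID1, which links laminin to collagen IV, rose from 1.41, 3.25 and 2.47 CPM to 76.8, 86.6 and 82.4 CPM. ITGA2, the alpha chain of a collagen receptor, fell from 46.4, 47.2 and 46.2 CPM to 1.83, 1.49 and 2.57 CPM (log2 fold change -4.57, SE 0.27, edgeR adjusted p = 1.8e-09), and ITGA6, a laminin receptor chain, from 81.0, 79.6 and 83.8 CPM to 35.7, 34.6 and 38.2 CPM. Of 24 matrix proteases and inhibitors 5 rose and 2 fell, and without any single library other than sgXIST9 replicate 1 the number that rose was 3, and without any other than sgCtl replicate 3 the number that fell was 1. TIMP2, an inhibitor of metalloproteinases, rose from 25.7, 22.5 and 19.9 CPM to 59.1, 57.7 and 59.9 CPM, and SERPINE2 from 2.62, 2.71 and 2.70 CPM to 13.8, 10.6 and 12.3 CPM. FBN2, the microfibril protein fibrillin 2, fell from 30.9, 37.9 and 33.4 CPM to 0.669, 1.59 and 1.34 CPM.

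Mesenchymal and epithelial genes likewise moved both ways. The factors ZEB2 and TWIST1, which repress epithelial genes, fell: ZEB2 from 28.1, 32.9 and 26.5 CPM and TWIST1 from 3.22, 4.02 and 4.54 CPM, both to below detection, at least 187-fold and 25.1-fold lower. Fibronectin (FN1) fell from 5.10, 7.66 and 5.57 CPM to 0.759, 1.54 and 0.876 CPM. SNAI2, a further repressor of epithelial genes, rose from 0.470, 0.232 and 0.172 CPM to 4.55, 7.01 and 6.37 CPM, the smooth muscle actin ACTA2 from 51.8, 35.4 and 22.0 CPM to 174, 196 and 152 CPM, and the intermediate filament gene NES from 18.1, 11.6 and 7.0 CPM to 315, 318 and 333 CPM (log2 fold change 4.72, SE 0.31, edgeR adjusted p = 8.0e-09). In all, 3 of 18 mesenchymal genes rose and 4 fell, with a median of -0.29. Of 23 genes of epithelial junctions and their regulators, 5 rose and 3 fell, with a median of 0.34. MARVELD3, a tight junction protein, rose from 2.75, 2.17 and 0.918 CPM to 14.3, 14.4 and 12.8 CPM. DSG2, a desmosomal cadherin, went from 4.23, 3.09 and 0.976 CPM to 0 counts, and its call was lost when only the libraries compared were fitted (edgeR adjusted p = 0.016). Without sgCtl replicate 3, sgXIST9 replicate 2 or sgXIST9 replicate 3, only 1 of the 3 falling genes of this list was called. The keratin KRT8 rose from 9.59, 8.74 and 9.07 CPM to 31.5, 34.4 and 35.7 CPM, while its partner KRT18 was at 168 ± 10.4 CPM and 164 ± 3.86 CPM (SD, n = 3) and the mucin MUC15 rose from 3.49, 2.17 and 0.804 CPM to 57.3, 52.9 and 60.5 CPM. Hippo effectors and YAP targets, which respond to cell density and matrix stiffness, had 1 up and 7 down of 27, with a median of -0.66. CCN1 fell from 34.0, 32.9 and 21.6 CPM to 6.74, 6.91 and 6.60 CPM, AJUBA from 91.9, 82.3 and 88.6 CPM to 32.8, 28.0 and 33.5 CPM, and CRIM1 from 5.37, 6.19 and 5.74 CPM to below detection.

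Genes known from neurons were among the largest changes in both directions. Of 26 neuronal adhesion and synapse organisers, 4 rose and 3 fell. SLITRK3 and GPM6A, described above, were among those that rose. NCAM1, the neural cell adhesion molecule, fell from 4.90, 5.11 and 3.21 CPM to below detection, and GPM6B, a relative of GPM6A on the X chromosome, from 4.09, 3.79 and 4.54 CPM to 0.402, 0.478 and 0.292 CPM. Of 19 neural lineage factors and filaments 3 rose and 4 fell. The microtubule protein MAP2 rose from 0.0671, 0.387 and 0.115 CPM to 23.2, 16.7 and 15.8 CPM. SOX1 fell from 6.64, 8.12 and 8.04 CPM to 0.223, 0.106 and 0.117 CPM, and SOX9 from 5.50, 5.96 and 4.99 CPM to 0, 0.0531 and 0.234 CPM. MBP, a myelin protein, rose from 31.8, 30.9 and 27.5 CPM to 112, 113 and 107 CPM, which is most of the summed level of the neuron and glia markers in both groups. Axon guidance ligands and receptors had 7 up and 6 down of 50. SEMA3A, a repellent for growth cones and a neighbour of SEMA3D on chromosome 7, fell from 2.88, 3.40 and 2.76 CPM to 0 counts, and SEMA3C from 189, 180 and 203 CPM to 61.5, 61.3 and 55.9 CPM. The Eph receptor EPHA6 rose from below detection to 4.78, 4.36 and 5.2 CPM and EPHA1 from 0.671, 0.309 and 0.230 CPM to 6.43, 6.75 and 8.41 CPM. Ion channels mostly fell where they were called. Of 22 voltage-gated sodium and calcium channel genes 0 rose and 6 fell, with a median log2 fold change of -0.73, and of 24 potassium channel genes 1 rose and 5 fell, with a median of -0.55. CACNB4, a calcium channel beta subunit, fell from 8.32, 8.66 and 6.77 CPM to 3.12, 3.35 and 2.22 CPM, and CACNB2 from 2.21, 2.09 and 2.76 CPM to 0.0446, 0.212 and 0.0584 CPM. KCNH2, the cardiac hERG channel, was the potassium channel that rose, from 5.77, 5.80 and 5.34 CPM to 20.7, 16.2 and 17.9 CPM. The GABA receptor genes GABRA5 and GABRG3 fell from 19.1, 20.9 and 22.6 CPM and from 2.55, 4.41 and 3.67 CPM to below detection.

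**Figure D3:**
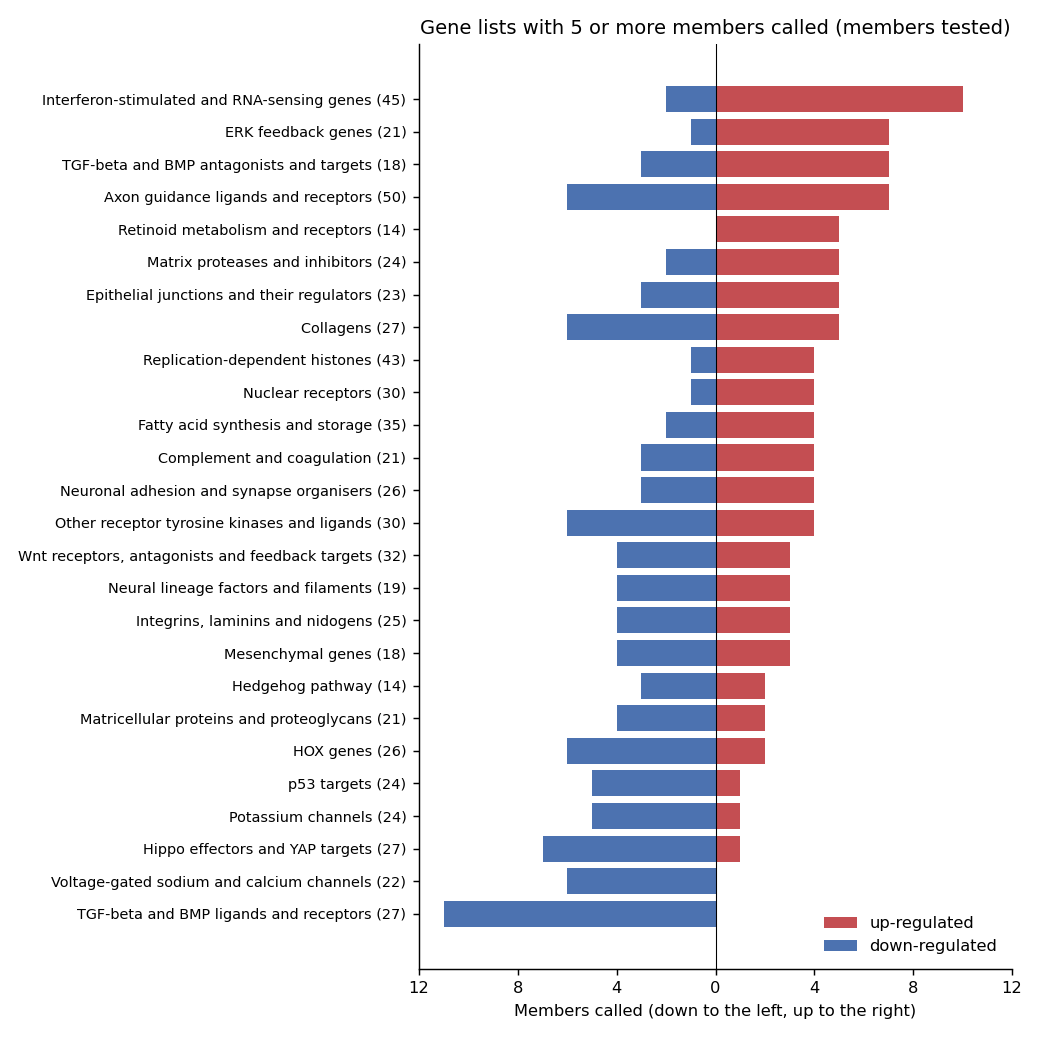
Number of members called up (red, to the right) and down (blue, to the left) for the gene lists with 5 or more members called; the number in brackets is that of members tested. TGF-beta and BMP ligands and receptors (11 down) and voltage-gated sodium and calcium channels (6 down) had no member called up, and retinoid genes (5 up) had no member called down. Over all genes tested 3.93% were called up and 3.77% down.

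Nuclear receptors and genes of the retinoid pathway were mostly higher where they were called. Of 30 nuclear receptor genes 4 rose and 1 fell, with a median log2 fold change of 0.14, and the number that fell was 0 without sgCtl replicate 3 or any of the sgXIST9 libraries. Beside NR3C1, the estrogen receptor ESR1 rose from 0 counts to 2.37, 3.61 and 4.09 CPM, and PPARG, a regulator of fat cell genes, from 2.21, 2.09 and 2.24 CPM to 12.9, 14.4 and 11.8 CPM. Of 14 genes that respond to glucocorticoids and androgens, 0 rose and 2 fell (PMEPA1 and NDRG1), with a median of 0.08, and without any single library other than sgCtl replicate 2 the number was 1. Of 14 genes of retinoid metabolism and its receptors 5 rose and 0 fell, with a median of 0.75. RDH10, which oxidises retinol, rose from 14.4, 16.9 and 18.3 CPM to 362, 312 and 330 CPM (4.34, SE 0.35, edgeR adjusted p = 9.0e-08), STRA6, the membrane receptor for retinol-binding protein, from 2.62, 2.24 and 1.55 CPM to 17.6, 22.8 and 17.6 CPM, and CYP26A1, which degrades retinoic acid, from 0.201, 0.541 and 0.459 CPM to 5.80, 7.33 and 6.31 CPM.

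Of 10 pluripotency and cancer stem markers tested, 0 rose and 4 fell (CD24, ALCAM, PROCR and NGFR), 5 were higher and 5 lower, and the number that fell was 2 without sgCtl replicate 3 or without any of the sgXIST9 libraries. ALDH1A1, the aldehyde dehydrogenase behind the usual activity assay, was at 4851, 4785 and 5142 CPM in sgCtl and at 3811, 3477 and 3629 CPM in sgXIST9 (log2 fold change -0.44, edgeR adjusted p = 0.065). The groups did not overlap, but the gene was not called. ALDH1A3, which makes retinoic acid, fell from 7.85, 6.50 and 6.37 CPM to 0.223, 0.212 and 0.117 CPM (-5.15, SE 0.41, edgeR adjusted p = 7.0e-08), and the mitochondrial ALDH2 rose from 7.98, 6.26 and 5.11 CPM to 34.4, 34.6 and 34.4 CPM. CD24 was near the limit of detection, at 1.07, 1.08 and 1.84 CPM in sgCtl and below the limit in sgXIST9 (edgeR adjusted p = 0.0034), and the call was lost without sgCtl replicate 3 or without any of the sgXIST9 libraries (edgeR adjusted p = 0.015 to 0.019). CD44 had at most 1 count in any of the 6 libraries, and PROM1, which codes for CD133, at most 2. ALCAM fell from 137, 106 and 86.9 CPM to 31.6, 30.0 and 31.0 CPM, and PROCR, the protein C receptor, from 12.4, 11.4 and 12.6 CPM to 0.268, 0.266 and 0.467 CPM. EPCAM was at 202, 177 and 198 CPM in sgCtl and 250, 237 and 242 CPM in sgXIST9 (0.34, edgeR adjusted p = 0.019).

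Interferon-stimulated and RNA-sensing genes had 10 up and 2 down of 45, with a median log2 fold change of 0.25. IFITM1 and IFITM2, neighbours on chromosome 11 that restrict virus entry, rose from 0.470, 0.541 and 0.402 CPM to 3.12, 3.61 and 4.50 CPM and from 10.8, 10.2 and 13.8 CPM to 39.9, 42.4 and 43.7 CPM. SAMD9L, an antiviral factor, rose from 4.36, 4.56 and 3.21 CPM to 16, 15.4 and 17.9 CPM. BST2, the tetherin that holds budding virus at the membrane, fell from 124, 113 and 146 CPM to 28.9, 30.6 and 27.3 CPM, and IRF9, a factor of the interferon response complex, fell by 1.04 on the log2 scale, a call that was lost without sgCtl replicate 3 or sgXIST9 replicate 1, where it fell by 1.00 and 0.90. Of 19 genes of MHC class I presentation 1 (5.26%) rose (2 without sgCtl replicate 1) and 1 (5.26%) fell, close to the shares over all genes. HLA-B was the one that rose, from 18.6, 16.7 and 19.7 CPM to 71.5, 73.4 and 70.6 CPM. CD74, the chaperone of MHC class II, rose from 0.268, 0.232 and 0.115 CPM to 9.82, 10.5 and 8.99 CPM. The death receptor FAS rose from 23.1, 19.5 and 20.1 CPM to 123 CPM in each library. FAS was also the member of 24 p53 targets that rose, while 5 fell, among them PLK2 (33.5, 29.3 and 31.9 CPM to 1.03, 0.797 and 1.05 CPM) and TP53I3 (32.7, 32.7 and 38.8 CPM to 15.7, 13.6 and 15.9 CPM). CEBPB, a factor of the stress and inflammatory response, fell from 26.0, 33.9 and 35.1 CPM to 5.22, 6.0 and 5.55 CPM.

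In growth and energy machinery few genes were called, where 3.93% of all genes tested rose and 3.77% fell. Of 48 mitosis genes and 74 subunits of oxidative phosphorylation, edgeR called 0 and 0, with 8 and 21 members at an unadjusted p under 0.05 and medians of -0.05 and 0.16. By sign, 20 mitosis genes were higher and 28 lower, while 56 of the subunits were higher and 18 lower. Of 37 polycomb and DNA methylation enzymes, which write the marks of silent chromatin, edgeR called 0 as well, with 8 at an unadjusted p under 0.05 and a median of -0.13. Of 46 DNA replication genes 2 (4.35%) rose, RFC2 and PRIM2, which is close to the share over all genes. In hypoxia, sgXIST9 against sgCtl had 0 up and 20 down of the 48 mitosis genes, with a median of -0.84. For the 46 DNA replication genes it had 1 up and 4 down there, with a median of -0.50. Of 25 hypoxia-induced genes 0 rose and 3 fell in normoxia, with a median of -0.01: ADM, and BNIP3L and NDRG1, whose calls were lost without any single library and without any but sgCtl replicate 2, respectively, so that 1 was left in 5 of the 6 cases. In lipid metabolism, SCD, the stearoyl-CoA desaturase, rose from 51.5, 64.9 and 40 CPM to 199, 171 and 191 CPM, and the fatty acid transporter CD36 from 22.2, 17.7 and 15 CPM to 54.6, 64.7 and 54.7 CPM, while SCD5 fell by 1.11 on the log2 scale. Of 35 genes of fatty acid synthesis and storage 4 rose and 2 fell. In iron handling, SLC39A8, a zinc and iron importer, fell from 183, 178 and 198 CPM to 16.1, 17.1 and 16.1 CPM, and the iron exporter SLC40A1 from 4.90, 5.03 and 6.54 CPM to below detection. Of 26 HOX genes 2 rose and 6 fell (1 rose without any single library other than sgCtl replicate 2), with HOXC6 and HOXC8 of the C cluster at log2 fold changes of -1.77 and -1.67. Of 43 replication-dependent histone genes 4 rose and 1 fell, H2BC8 rising from 35.7, 21.2 and 22.5 CPM to 209, 210 and 205 CPM.

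On the X chromosome, 499 genes were tested, of which 12 rose and 19 fell, XIST included, so that the share of called genes was 2.40% up and 3.81% down, against 3.93% and 3.77% over all genes. The median log2 fold change of the X-linked genes was -0.06. X-linked genes that rose included CAPN6, a calpain without protease activity (1.07, 0.619 and 0.230 CPM to 11.6, 10.9 and 12.8 CPM) and TMEM47, a junction protein (5.30, 4.25 and 4.94 CPM to 33.6, 33.9 and 36.7 CPM, log2 fold change 2.84, SE 0.12, edgeR adjusted p = 2.7e-11). LANCL3 and RHOXF1-AS1 rose from below detection to 0.893, 0.637 and 1.23 CPM and to 1.12, 1.70 and 1.46 CPM. Of the falling genes, NHS, an actin regulator, went from 6.24, 7.66 and 6.49 CPM to below detection, MAP3K15 from 5.84, 8.04 and 6.95 CPM to 0.446, 0.266 and 0.584 CPM, and HS6ST2, a heparan sulfate sulfotransferase, from 36.0, 35.7 and 35.9 CPM to 9.11, 10.6 and 9.23 CPM. Of 23 X-linked genes that often escape inactivation, 1 rose (STS, 3.49, 4.10 and 2.47 CPM to 7.86, 6.64 and 8.41 CPM) and 1 fell (AP1S2, 29.3, 26.8 and 31.2 CPM to 4.51, 5.63 and 5.2 CPM), and the STS call was lost without sgCtl replicate 1 or 3 or without sgXIST9 replicate 1 or 3 (edgeR adjusted p = 0.015 to 0.030). MED14 was at 72.1, 89.7 and 66.9 CPM and at 79.5, 86.8 and 82.5 CPM (0.12, edgeR adjusted p = 0.73).

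The deviation along the genome that held the most genes was on the long arm of chromosome 2. Its boundaries, like those of the region on chromosome 7, were set after the values were seen, so that the counts are a description. In hg38 coordinates from 96705930 to 242160503 on chromosome 2, 452 of 505 genes with a mean of at least 1 CPM were lower in sgXIST9 and 53 higher, with a median log2 fold change of -0.52 and quartiles of -0.78 and -0.29. In the sgXIST9 libraries the median deviation from the sgCtl mean was -0.49, -0.51 and -0.49, and in the sgCtl libraries -0.01, -0.02 and 0.03. The shift was therefore present in each sgXIST9 library. Between 38814 and 96638312 on the same chromosome, 175 genes were lower and 185 higher, with a median of 0.01. Of the 587 genes tested in the long arm region 14 were up-regulated and 54 (9.20%) down-regulated, among them WDR75 (513, 503 and 545 CPM to 256, 242 and 256 CPM), COPS8 (369, 348 and 369 CPM to 117, 106 and 114 CPM) and NFE2L2, the factor of the antioxidant response (96.6, 106 and 91.5 CPM to 45.4, 43.2 and 43.7 CPM). Other members of the gene lists lie there too, such as IGFBP2, IRS1, FN1, ZEB2, ITGA6 and COL4A4. They were not set apart from the list counts and medians above. All 12 windows of 40 genes in this region had a median between -0.65 and -0.40. The opposite was seen on chromosome 7 from 67276131 to 75888926, where 39 of 40 genes with at least 1 CPM were higher, with a median of 1.04, and 21 of 46 genes tested (45.7%) were up-regulated, among them RFC2 (46.8, 43.9 and 39.9 CPM to 96.0, 94.9 and 94.1 CPM) and LIMK1, a kinase of cofilin, at 28.5 ± 0.743 and 70.5 ± 2.62 CPM (SD, n = 3). The median deviations of the sgXIST9 libraries there were 0.90, 1.03 and 0.99. Of the other 296 windows, 288 had a median within 0.2 of zero, and the lowest and highest medians were -0.39 and 0.36. On chromosome 18, 21 of 201 genes tested (10.4%) were down-regulated and 2 (0.995%) up-regulated, with a median log2 fold change of -0.11. The region on chromosome 2 had a median of -0.51 in hypoxia and -0.51 in sgXIST7 against sgCtl, which shares the sgCtl libraries, and that on chromosome 7 had 0.89 and 1.02, and between sgXIST9 and sgXIST7 the medians were -0.02 and 0.01. Outside both regions 552 genes were up-regulated and 506 down-regulated, 3.86% and 3.54% of those tested.

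**Figure D4:**
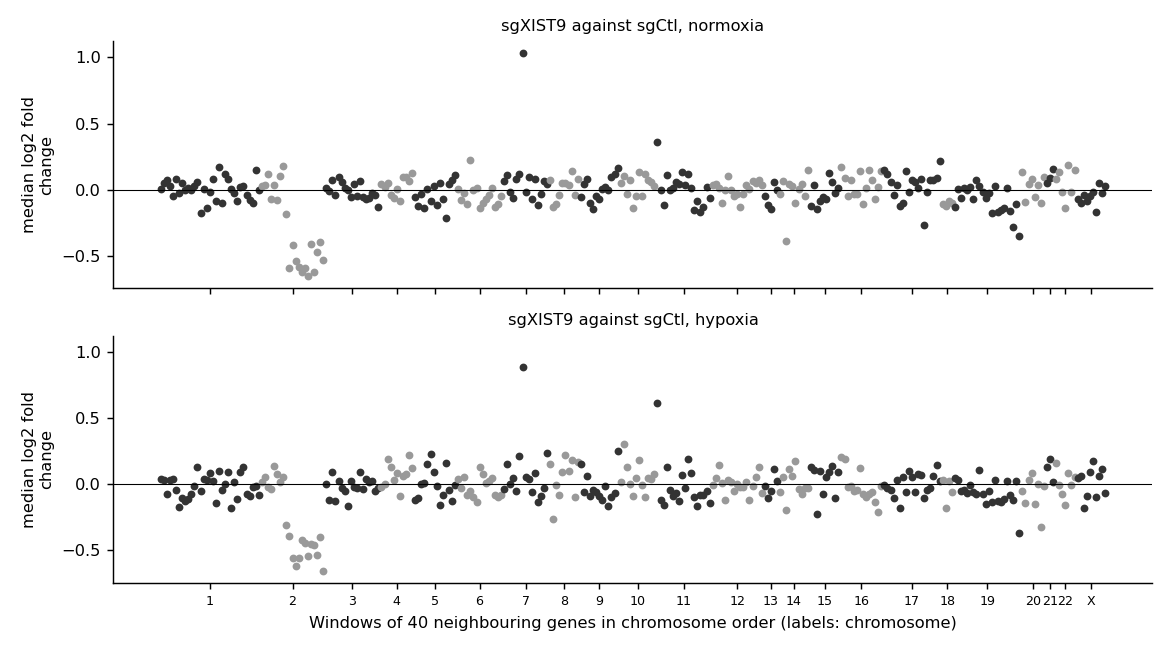
Median log2 fold change of sgXIST9 against sgCtl (vertical) for windows of 40 neighbouring genes with a mean of at least 1 CPM, in chromosome order (horizontal, chromosomes in alternating shades), in normoxia above and in hypoxia below. The 12 windows of the chromosome 2 long arm lie between -0.65 and -0.40 in normoxia, the window on chromosome 7 lies at about 1, and nearly all others lie near zero.

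Called genes also stood next to each other more often than tested genes did in general. Of the up-regulated genes 31.2% had a directly neighbouring tested gene that was up-regulated, against 7.51% of all tested genes, and of the down-regulated genes 25.1% had a down-regulated neighbour, against 7.16%. Outside the regions on chromosomes 2 and 7 the shares were 29.5% against 7.41% and 25.5% against 6.74%. Neighbours called in opposite directions made up 28 adjacent pairs, while 105 pairs were both up and 79 both down. Some neighbours are by name antisense to their partner, such as OSTN-AS1 and GATA2-AS1. Such pairs were not set apart, so that not every pair stands for separate genes. Runs of 3 or more called neighbours numbered 21 up and 12 down, and they were listed after the values were seen. The longest rising run, on chromosome 3 from 190514085 to 191398659, held IL1RAP, OSTN, OSTN-AS1, UTS2B and CCDC50. In it IL1RAP, a coreceptor of interleukin 1, was at 1.90 ± 0.357 CPM in sgCtl and 6.88 ± 0.768 CPM in sgXIST9 (SD, n = 3). SLITRK3, LINC01322, BCHE and ZBBX formed a run on the same chromosome from 165186720 to 167380297, with LINC01322 at 0 counts in sgCtl and at 0.975 ± 0.038 CPM in sgXIST9 (SD, n = 3). GATA2, a factor of blood and endothelial development, rose with its antisense gene GATA2-AS1 and with LOC90246, GATA2 from 4.72 ± 3.89 to 110 ± 7.06 CPM (SD, n = 3). Of the falling runs, the one on chromosome 10 from 60869440 to 62672011 held RHOBTB1, CABCOCO1, ARID5B, RTKN2 and ZNF365, with ARID5B, a chromatin-binding factor, at 78.1 ± 13.2 and 0.266 ± 0.121 CPM (SD, n = 3). PCLO, SEMA3A, SEMA3D and KIAA1324L fell together on chromosome 7, as did TMX3, CCDC102B and DOK6 on chromosome 18, where CCDC102B was at 145 ± 9.38 and 0.433 ± 0.0815 CPM (SD, n = 3).

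sgXIST9 was next compared directly with sgXIST7 in normoxia, to see which levels were particular to sgXIST9 among the KD clones. Of the genes tested, 196 (1.31%) were higher and 312 (2.09%) lower in sgXIST9 than in sgXIST7. Of the 587 genes up-regulated against sgCtl 96 were also higher than in sgXIST7, 19 were lower than in sgXIST7 and 472 had no call, and of the 563 down-regulated genes 146 were also lower, 8 were higher and 409 had no call. OSTN, at 0.519, 0.722 and 0.784 CPM in sgXIST7, was higher in sgXIST9 by 10.12 on the log2 scale (SE 0.29, edgeR adjusted p = 3.9e-13). Its neighbours UTS2B and CCDC50 were at 0.259, 0.333 and 0.0436 CPM and at 46.3, 36.7 and 38.9 CPM in sgXIST7, and were higher in sgXIST9 by 7.55 and 4.18. GRIK2 (0.216, 0.611 and 0.218 CPM in sgXIST7), the muscarinic receptor CHRM3 (0.216, 0.278 and 0.392 CPM) and CRH, the corticotropin-releasing hormone (0.0865, 0.111 and 0.0436 CPM), were higher in sgXIST9 by 7.56, 7.01 and 6.14. In sgXIST9, CHRM3 was at 40.8, 38.8 and 37.4 CPM and CRH at 3.57, 8.71 and 5.72 CPM. PPARG, at 2.16, 2.0 and 1.61 CPM in sgXIST7, was higher in sgXIST9 by 2.76 (edgeR adjusted p = 7.2e-08). Of the genes below both other groups, CAMK4, a calcium-dependent kinase, was at 13.4, 14.4 and 15.8 CPM in sgCtl, 21.1, 20.5 and 19.4 CPM in sgXIST7 and below detection in sgXIST9. NREP, a small neuronal protein, was at 37.2, 32.4 and 32.4 CPM in sgCtl, 22.9, 29.2 and 20.7 CPM in sgXIST7 and 0.223, 0.106 and 0.409 CPM in sgXIST9. The Hedgehog effector GLI3, ZNF518B and HIVEP1 were also below both. Values in the other direction were seen for COL12A1, which was at 4830, 5584 and 4427 CPM in sgXIST7 and lower in sgXIST9, with a log2 fold change of -1.58, and for BST2, which was at 2.12, 1.94 and 1.44 CPM in sgXIST7 and higher in sgXIST9 by 3.98. CDH10, a cadherin, was at 128, 102 and 117 CPM in sgXIST7 and at 1.16, 2.07 and 1.93 CPM in sgXIST9. Of the 92 genes that were higher than in sgXIST7 without a call against sgCtl, 41 lay at the end of chromosome 7 from 124822386, where the median log2 fold change was 0.01 for sgXIST9 and -0.85 for sgXIST7, each against sgCtl.

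The hypoxia libraries, which are separate from those in normoxia, gave a further measurement of sgXIST9 against sgCtl. There 917 genes (6.14%) rose and 506 (3.39%) fell, which is 9.53% in either direction. Of the 587 genes up-regulated in normoxia 572 (97.4%) had the same sign in hypoxia, 436 were called up and 0 called down, and their median log2 fold change was 2.02. Of the 563 down-regulated genes 518 (92.0%) had the same sign, 282 were called down and 1 was called up, and the median was -1.28, against -2.54 in normoxia. The genes were selected for a large change in normoxia, so that smaller changes in separate libraries follow in part from the selection. The genes called in both are 74.3% of the normoxia and 47.6% of the hypoxia list for up, and 50.1% and 55.7% for down. The difference of the 2 effects was itself called for 99 genes as higher (0.663%) and 52 as lower (0.348%), 1.01% in either direction. Among the down-regulated genes it was called for 50 as higher and 0 as lower, and among the up-regulated genes for 8 as higher and 19 as lower, a split to which the selection also contributes. The number of differences depended on single libraries: without sgCtl replicate 3 of hypoxia 469 and 256 genes were called, and without sgXIST9 replicate 1 of normoxia 40 and 17.

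PRKAA2, below detection in sgXIST9 in normoxia, was at 6.38, 4.08 and 6.37 CPM in sgXIST9 in hypoxia, against 78.7, 73.0 and 112 CPM in sgCtl, and the difference of the effects was 6.46 (edgeR adjusted p = 0.00040). IGFBP3 was at 465, 482 and 773 CPM in sgXIST9 and 522, 442 and 689 CPM in sgCtl in hypoxia, so that the groups overlapped there, and the difference was 2.95 (edgeR adjusted p = 0.0022). ADM was at 88.2, 77.7 and 156 CPM and 266, 325 and 380 CPM, with a difference of 3.76. All of these were closer to sgCtl in hypoxia than in normoxia. PLEKHA7, a protein of adherens junctions, and SFRP1, a secreted Wnt antagonist, had log2 fold changes of -4.33 and -4.56 in normoxia and -0.34 and -1.23 in hypoxia. GPR132, a receptor for lysolipids, was the gene called in opposite directions: it was at 0.805, 0.619 and 1.32 CPM in sgCtl and 0.178, 0.106 and 0.350 CPM in sgXIST9 in normoxia, and at 0.312, 0.149 and 0 CPM and 0.820, 1.23 and 0.820 CPM in hypoxia, all low values, and the normoxia call was lost without any single library of the 6 (edgeR adjusted p = 0.010 to 0.066). Some risers differed too. SCG2, a neuroendocrine granule protein, was at 9.79, 14.2 and 11 CPM in sgCtl and 403, 404 and 394 CPM in sgXIST9 in normoxia, and at 1.00, 1.39 and 1.59 CPM and 705, 593 and 655 CPM in hypoxia, a difference of 3.84 (edgeR adjusted p = 1.1e-05). NR3C1 was at 8.31, 7.79 and 2.39 CPM in sgCtl and 444, 426 and 477 CPM in sgXIST9 in hypoxia, a difference of -3.05. In the latter case the sgXIST9 levels in both conditions lay within 397 and 477 CPM, and it was the sgCtl levels that stood apart. XIST had a log2 fold change of -2.88 in hypoxia, and the difference was 0.53 and not called.

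**Figure D5:**
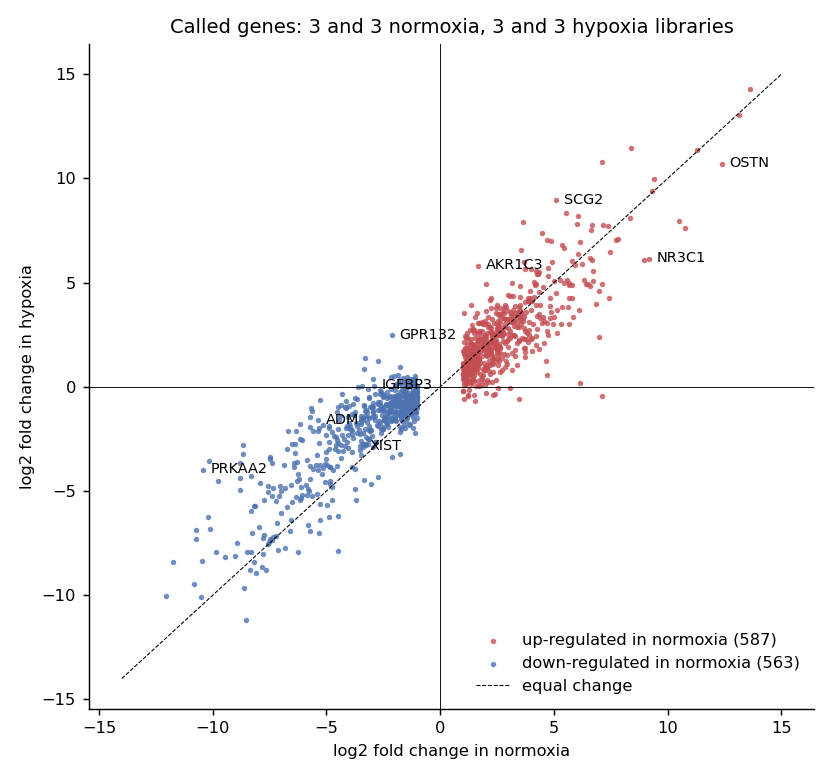
Log2 fold change of sgXIST9 against sgCtl in normoxia (horizontal) and in hypoxia (vertical) for the 587 up-regulated (red) and 563 down-regulated (blue) genes of normoxia; the dashed line marks equal change. Most points keep their sign, and most blue points lie above the line, with medians of -2.54 in normoxia and -1.28 in hypoxia, although the genes were selected for a large change in normoxia.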

How the data were processed

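RNA-seq counts of 18 libraries, 3 in each of 6 groups, were taken from a single deposited table. The table holds raw read counts per gene, which the authors made with HISAT2 and featureCounts against hg38 after trimming with Trimmomatic and a quality check with FastQC; tool versions are not given in the sources used here. Of 28279 lines, 2 were broken and were left out, with 0 counts on them. Genes with 0 counts in every library numbered 5287. The filterByExpr filter (minimum count 10, minimum total 15) left 14938 genes, which were fitted over all 18 libraries with edgeR 4.0.16 (quasi-likelihood test, TMM scaling, prior count 0.125, R 4.3.3). Samples were grouped by the labels' guide and oxygen condition. The SE given with a fold change is the absolute log2 fold change over the square root of the F statistic of its test. It restates that test, is not a separate estimate of error and can be too small at low counts. The scripts were tested on simulated data with known changes.

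Genes named in the text are those near XIST, called X-linked genes, the 12 largest changes in each direction at 5 CPM or more, the 10 largest differences in CPM, up to 6 called members of each gene list in each direction, 10 genes in each direction that were called against both sgCtl and sgXIST7, the 8 largest differences from hypoxia, and genes that the study's text names. GATA2, ARID5B, IL1RAP, LIMK1, PAX8, KRT18, DDT and other members of regions and runs were added after their values were seen. The gene lists and the comparison were chosen with earlier results of these data known. Replicate numbers were checked for pairing by the correlation of deviations from the group means. In normoxia same-numbered sgCtl and sgXIST9 libraries had 0.03, 0.04 and 0.08, so that no pairing was assumed. In hypoxia they had 0.20, 0.52 and 0.57, while sgCtl replicate 1 and sgXIST9 replicate 2 had 0.28. The hypoxia libraries may therefore be paired by number. The hypoxia values and the differences given come from the fit without pairing, with the replicate block as an alternative. Alternatives were DESeq2 1.42.0, other scalings and filters, a fit of the compared groups alone, a replicate block, an adjusted p of 0.05 and leaving out each library. Intervals of counting error were not needed for replicated comparisons, and depth limits genes at a few counts per library. A few genes are not reported here.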

Additional observations from a re-analysis of the deposited data

Results flagged for a closer look

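For 34 of the 340 named genes the effect of sgXIST9 against sgCtl differed between hypoxia and normoxia by the test of the difference itself (edgeR quasi-likelihood test, adjusted p under 0.01, difference above 1 or below -1 on the log2 scale). The named genes were chosen in part for this difference or for a large change in normoxia, so that this share does not describe genes in general, and over all 14938 genes tested 1.01% were called. For genes that fell in normoxia the hypoxia effect minus the normoxia effect was above 0, with log2 differences for PRKAA2 6.46, GABRA5 5.24, GPR132 4.61, DAPK1 4.57, SLC35F3 4.49, NHS 4.42, PLEKHA7 3.99, ADM 3.76, COL4A4 3.54, SFRP1 3.33, ALDH1A3 3.31, MAP3K15 3.09, IGFBP3 2.95, BMP7 2.90, ITGA2 2.15, COL27A1 2.12, TM7SF2 2.06, FN1 2.05, NTN1 2.05, WNK3 1.43, IGFBP2 1.36, FZD1 1.24 and SCD5 1.23. For genes that rose in normoxia and rose less, or fell, in hypoxia the log2 differences were NR3C1 -3.05, DUSP5 -2.31, DUSP14 -2.21, ISG20 -1.91, TMEM47 -1.88, SDC4 -1.67, FOSL2 -1.63 and SCD -1.40. For genes that rose in normoxia and more so in hypoxia they were AKR1C3 4.13, SCG2 3.84 and HOXB8 2.56. All 34 calls were also made without sgCtl replicate 3 of hypoxia and with the replicate block, and 33 were made by DESeq2. When only the groups compared were fitted 22 of them were made, and without sgXIST9 replicate 1 of normoxia 16.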

How the results depend on the processing

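In normoxia the number of genes called between sgXIST9 and sgCtl stayed within 1.5 times of 587 up and 563 down under the alternatives that kept all 18 libraries or only the groups compared, from 519 (mean CPM filter) to 717 (adjusted p under 0.05) up and from 454 to 727 down, and with DESeq2 it was 637 and 606, of which 575 and 547 were shared. Leaving out 1 library at a time gave 495 (without sgCtl replicate 3) to 536 up and 434 (without sgXIST9 replicate 1) to 504 down. Against sgXIST7 it gave 148 to 170 higher and 221 to 273 lower. In hypoxia it gave 755 to 1226 up and 394 to 774 down, the highest numbers without sgCtl replicate 3, and for the difference between hypoxia and normoxia 40 to 469 higher and 17 to 256 lower. When only the groups compared were fitted, hypoxia gave 432 up and 209 down and the difference 24 lower. DESeq2 gave 228 higher and 143 lower for the difference, and an adjusted p under 0.05 gave 333 and 135. The causes were not tested. Same-numbered normoxia libraries share only a number. With the replicate block the normoxia comparison gave 625 up and 602 down, and in hypoxia 974 and 561. The difference between hypoxia and normoxia then gave 140 higher and 63 lower. Of the 328 named genes with a call, 247 kept it in every alternative that tested them, 32 lost it in an alternative other than a left-out library, and 0 changed direction. Of 2072 counts of list members, 205 moved by more than 1.5 times. Depth limits genes near 3 counts per library, for which folds are given as bounds.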

Other observations

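Families of genes outside the lists, chosen by name after their values were seen, also differed in how evenly they moved. Over all genes tested, 3.93% were up-regulated and 3.77% down-regulated. Of 46 protocadherin genes, which code for adhesion molecules of neurons, 42 were lower in sgXIST9 in normoxia, with a median log2 fold change of -0.74, although 3 were called, and in hypoxia the median was -0.03. Of 452 zinc finger genes named ZNF 344 were lower, with a median of -0.21 in normoxia and -0.15 in hypoxia. Up-regulation was called for 9 of them (1.99%) and down-regulation for 11 (2.43%), both below the shares over all genes. Among the 215 of them on chromosome 19, 176 were lower. Of 256 solute carrier genes 22 (8.59%) were down-regulated and 7 (2.73%) up-regulated, with a median of 0.05. Of 752 genes with the names of noncoding RNAs 40 (5.32%) were up-regulated and 11 (1.46%) down-regulated. Of 78 cytosolic ribosomal protein genes edgeR called 0 in either direction, with a median of 0.04.

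The sgCtl libraries varied more among themselves than the sgXIST9 libraries for some genes. Of 12735 genes with a mean of at least 1 CPM in sgCtl, 137 had a highest library more than 3 times the lowest, 62 of them with replicate 1 highest and replicate 3 lowest, and 54 of the 137 were called between sgXIST9 and sgCtl, 29 up and 25 down. In sgXIST9 the number was 65 of 12602, of which 3 were called. The part of this spread in the results was not tested.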
